A study of Mus musculus with 16 samples.

Results

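Gene expression in gonadal fat after vagotomy was compared with that after sham surgery, averaged over the vehicle and SHU9119 infusions. The comparison takes all 16 libraries of the series, 8 after each surgery, and all 24454 genes of the count table, and no measured value was used to choose them. The mice were lean C57BL/6J males, 16 weeks old and on chow, and had either sham surgery or subdiaphragmatic vagotomy (sDVX). Starting 4 weeks after the operation, a minipump delivered vehicle or SHU9119 (1 nmol per day) to the cerebral ventricles over 2 weeks, so every mouse of every group also had a brain infusion and isocaloric feeding. The groups are called Sham_Veh, Sham_SHU, VX_Veh and VX_SHU, with 4 libraries in each. The labels do not say how complete the nerve cut was. They also do not state that each library is a separate mouse, so the p-values measure the spread between libraries, which may in part be technical.

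The vagus nerve carries parasympathetic output from the brainstem to the stomach, gut, liver and pancreas and returns sensory signals from them, and a cut below the diaphragm removes both. White fat is known to be supplied mainly by sympathetic fibres, which drive lipolysis through adrenergic receptors, and a direct vagal supply of fat is debated. SHU9119 is an antagonist of the brain melanocortin receptors Mc3r and Mc4r, and block of these receptors is known to favour fat storage. Gonadal fat is made of adipocytes, stromal progenitors that can divide and form new adipocytes, vessels and immune cells.

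Libraries held 20425295 to 30889052 counts and 18227 to 20253 genes with at least 1 count. Adipoq, the adipocyte hormone adiponectin, stood at 1200 to 3960 CPM (counts scaled to a common library size by TMM) in the 16 libraries, so each held adipocyte RNA. RNA of neighbouring organs was also present. The summed level of 16 liver genes, a list chosen after the data were seen, was at least 500 CPM in 4 libraries, Sham_Veh2 (3040), Sham_SHU1 (1060), Sham_SHU3 (646) and Sham_SHU4 (4020), and ran from 35.2 to 301 CPM in the 8 sDVX libraries. Testis and sperm genes summed to 3630 CPM in Sham_Veh4, 1760 in Sham_SHU3 and 61.7 to 461 in all others, and 23 epididymis genes to 11800 in VX_Veh4 and 12300 in VX_SHU4. In total 7 libraries held at least 500 CPM of epididymis or testis genes. VX_Veh1 stood apart in another way: it was the lowest of the 8 sDVX libraries for 20 of 20 genes of adipocyte identity and the highest for 12 of 12 genes of ciliated epithelium, which summed to 1200 CPM there. Leaving out the 4 libraries with liver genes leaves Sham_SHU2 as the only Sham_SHU library, which is then assumed to vary like the others, while leaving out the 7 with epididymis or testis genes leaves at least 2 in each group.

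**Figure D1:**
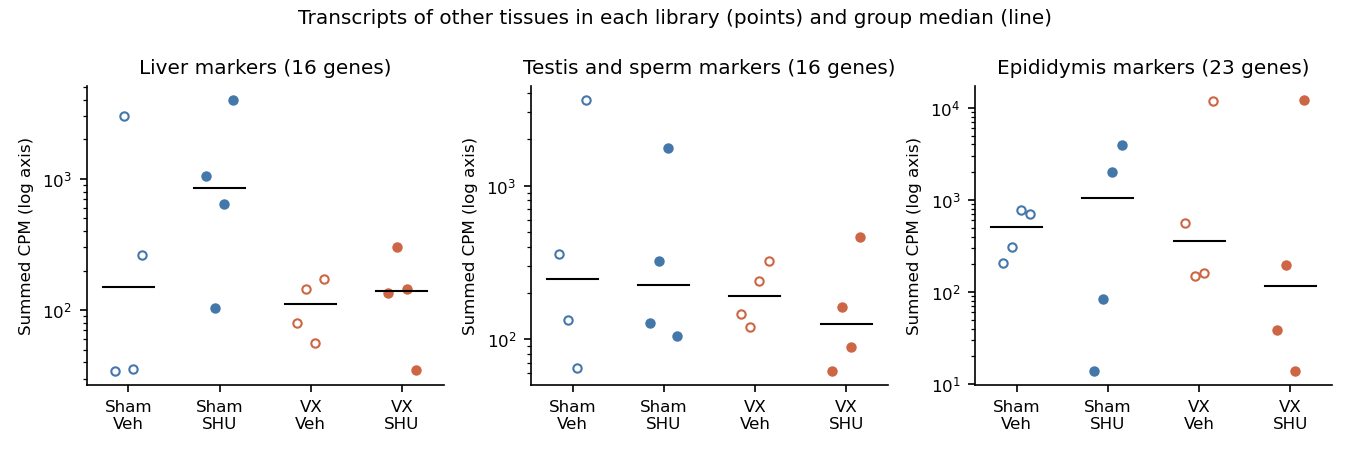
Summed CPM (log axis) of liver, testis and sperm, and epididymis marker genes in each library, with open points for vehicle, filled points for SHU9119, blue for sham, orange for sDVX, and lines for group medians. The 4 libraries above 500 CPM of liver genes are all sham libraries, and the highest testis sum, 3630 CPM, is in Sham_Veh4.

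No gene passed the averaged comparison. Of 16682 genes tested with edgeR's quasi-likelihood test and infusion as a block, 0 (0%) had a Benjamini-Hochberg adjusted p under 0.05, and the smallest adjusted p was 0.196, shared by 856 genes. At an unadjusted p under 0.05 there were 2680 genes (16.1%), of which 880 (5.28%) were higher and 1800 (10.8%) were lower after sDVX. Within the infusions edgeR also called 0 genes, with 274 higher (1.64%) and 1061 lower (6.36%) at an unadjusted p under 0.05 under vehicle and 853 higher (5.11%) and 925 lower (5.54%) under SHU9119. Limma-voom also called 0 genes (939 higher and 1005 lower at an unadjusted p under 0.05), whereas the DESeq2 Wald test called 446 of 16195 (2.75%), 96 higher (0.593%) and 350 lower (2.16%). The DESeq2 count was 164 without the 4 libraries with liver genes, with 56 of the 446 among them, and 35 without the 7 libraries with epididymis or testis genes, with 8 shared. Of the liver list, 14 of 16 genes were among the 446. Over all genes tested the median log2 fold change, sDVX minus sham, was 0.0013, so the comparison was centred close to 0. Because of this, the genes below are described by their levels, with the unadjusted p and its background share, and none is given as a call of the edgeR test.

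The levels of only 5 genes (0.03%) did not overlap between the 8 sham and the 8 sDVX libraries, 3 higher (0.018%) and 2 lower (0.012%) after sDVX. Card19, a protein with a caspase recruitment domain, ran from 13.4 to 16.6 CPM after sham surgery and from 16.8 to 21.5 after sDVX. Trip6, an adaptor of cell adhesions with LIM domains, ran from 43.1 to 53.5 and from 53.8 to 60.1 CPM. Ncdn, neurochondrin, ran from 22.6 to 27.7 and from 27.8 to 31.2 CPM. The gaps between the groups were thus narrow for all 3. On the lower side, Ccdc88a, the actin-binding protein girdin, ran from 37.2 to 70.5 CPM after sham surgery and from 29.6 to 36.2 after sDVX, with a log2 fold change of -0.50 (SE 0.116). Camk2n2, an inhibitor of the calcium and calmodulin dependent kinase, ran from 3.24 to 5.39 and from 1.91 to 3.14 CPM. Trip6, Ncdn, Ccdc88a and Camk2n2 lie outside the rule for named genes and are given because they complete this count.

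Among the 24 function lists, that of cell division had the lowest median and the highest share of members at an unadjusted p under 0.05. Of 28 cell cycle genes, which drive DNA replication and mitosis, 26 had lower estimates after sDVX, and 19 had an unadjusted p under 0.05 on that side (67.9% against 10.8% of all genes). The median log2 fold change of the list was -0.70, -0.61 under vehicle and -0.81 under SHU9119. None of the 28 passed the adjusted threshold in edgeR. In DESeq2 with all libraries 5 did, all lower: Mki67, Top2a, Tpx2, Cdca8 and Bub1. Over all genes DESeq2 called 350 of 16195 lower (2.16%). Mki67 passed in only 1 of 34 alternatives, DESeq2 with all libraries. The list was chosen with earlier results of these data known, so its counts are a description and not independent evidence.

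Promoter sequences are shown for 3 genes of cell division, the mitotic marker Mki67, the DNA topoisomerase Top2a and the spindle midzone protein Prc1, because genes of this class are known to carry CCAAT boxes, bound by the factor NF-Y, and the element TTTGAA, bound by cell cycle repressor and activator complexes. Each run is the 250 bases before a start site in RefSeq on GRCm38.p6, written 5′ to 3′ on the strand of the gene, with CCAAT or ATTGG and TTTGAA or TTCAAA in capitals. The windows are chr7:135716380-135716629 (minus strand) for Mki67, chr11:99024190-99024439 (minus strand) for Top2a and chr7:80294201-80294450 (plus strand) for Prc1. The gene spans given below begin at 135716450 for Mki67 and at 80294445 for Prc1. Both positions lie inside the windows, so the last bases of these 2 windows fall within those spans.
Mki67: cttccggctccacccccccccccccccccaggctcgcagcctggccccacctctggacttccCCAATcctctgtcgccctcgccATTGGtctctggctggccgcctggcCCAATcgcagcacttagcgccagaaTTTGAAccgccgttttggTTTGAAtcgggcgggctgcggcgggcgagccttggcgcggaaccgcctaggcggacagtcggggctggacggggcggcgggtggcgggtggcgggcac
Top2a: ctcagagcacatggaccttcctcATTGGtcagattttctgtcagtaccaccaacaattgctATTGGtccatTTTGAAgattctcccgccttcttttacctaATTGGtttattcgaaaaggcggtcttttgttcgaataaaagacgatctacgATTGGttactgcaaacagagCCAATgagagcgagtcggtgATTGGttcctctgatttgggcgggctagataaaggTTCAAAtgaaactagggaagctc
Prc1: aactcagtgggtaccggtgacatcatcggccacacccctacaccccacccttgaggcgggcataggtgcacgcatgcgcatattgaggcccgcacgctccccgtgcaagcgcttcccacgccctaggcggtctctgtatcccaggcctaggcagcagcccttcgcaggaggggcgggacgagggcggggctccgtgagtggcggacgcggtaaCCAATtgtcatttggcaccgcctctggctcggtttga
The Mki67 window held 3 CCAAT and 2 TTTGAA matches, that of Top2a 6 and 2, and that of Prc1 1 and 0. Over the 23 of 28 cell cycle genes with an entry, the first promoter listed held CCAAT on either strand in 19 (82.6%) and TTTGAA in 7 (30.4%). The shares were 35.7% and 11.5% over the 13116 tested genes with an entry, and 33.8% and 16.0% over all 32851 promoters of the table. These matches describe the letters of the windows and say nothing of binding in this tissue.

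Mki67, the proliferation antigen Ki-67 (chromosome 7, 135689784 to 135716450), ran from 10.4 to 26.2 CPM with a median of 14.4 in the sham libraries and from 6.05 to 17.1 with a median of 8.84 in the sDVX libraries. The surgery groups overlapped, and 7 of 8 sDVX libraries lay under the sham median. Its log2 fold change was -0.77 (SE 0.171, unadjusted p = 0.000426 and adjusted p = 0.196 in edgeR, adjusted p = 0.00677 in DESeq2). Under vehicle alone the 4 sham libraries were at 11.5, 10.4, 12.6 and 12.6 CPM and the 4 sDVX libraries at 6.05, 7.68, 11.1 and 7.04. Under SHU9119 they were at 25.7, 22.0, 16.1 and 26.2 CPM against 10.9, 9.51, 17.1 and 8.17. The sham libraries under SHU9119 were thus the highest of the 4 groups, and the estimate was -0.57 (SE 0.237) under vehicle and -0.97 (SE 0.238) under SHU9119.

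Prc1, which bundles the microtubules that separate dividing cells (chromosome 7, 80294445 to 80316259), had a range of 5.20 to 21.1 CPM after sham surgery (median 10.8) and 3.72 to 5.68 after sDVX (median 4.49). All 8 sDVX libraries were under the sham median and 6 of 8 sham libraries were above the highest sDVX library. The log2 fold change was -1.21 (SE 0.253, edgeR unadjusted p = 0.000249, adjusted p = 0.196), with -1.15 under vehicle and -1.27 under SHU9119. The Sham_Veh libraries were at 6.87, 5.24, 5.20 and 21.1 CPM and the VX_Veh libraries at 4.22, 3.72, 5.26 and 4.08. The vehicle estimate of Prc1 thus rests largely on Sham_Veh4. Leaving out 1 library at a time gave averaged estimates of -1.31 to -0.87. Among the mitotic kinases and cyclins, Bub1, a spindle checkpoint kinase, had the lowest estimate, -2.04 (SE 0.569), from a median of 2.19 CPM to 0.988. Top2a, which untangles DNA in dividing cells, had a median of 18.6 CPM after sham surgery and 7.03 after sDVX (log2 fold change -1.22, SE 0.290). Cyclin genes followed, with -1.46 (SE 0.415) for Ccnb1 and -1.57 (SE 0.475) for Ccnb2, and -0.84 (SE 0.251) for their partner kinase Cdk1. The 9 members with an unadjusted p of 0.05 or more were Ccne1, Ccne2, Mcm2, Mcm3, Mcm5, Mcm6, Pcna, Tyms and Tk1, with -0.11 (SE 0.0602) for the polymerase clamp Pcna, -0.11 (SE 0.0839) for the helicase subunit Mcm3, and the 2 estimates above 0, 0.17 (SE 0.180) for Mcm2 and 0.04 (SE 0.132) for Mcm6.

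Sham_Veh4, the library with 3630 CPM of testis and sperm genes, was the highest sham library for 17 of the 28 cell cycle genes, and its Prc1 level, 21.1 CPM, was the highest of the 16. Without Sham_Veh4 the cell cycle list had 16 members lower at an unadjusted p under 0.05, against 813 of all 16814 genes tested, and a median of -0.50. Without the 7 libraries with epididymis or testis genes, 28 of 28 members had estimates under 0, 14 had an unadjusted p under 0.05, and the median was -0.49. Over all genes tested, 644 of 16509 were lower at that level there. Without the 4 libraries with liver genes the median was -0.76. With liver, epididymis, testis and ciliated sums as covariates in DESeq2, 6 cell cycle genes were lower at that level, against 493 of all 16682, and the median was -0.33. In bulk tissue, fewer dividing cells and less of each transcript per cell cannot be told apart.

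**Figure D2:**
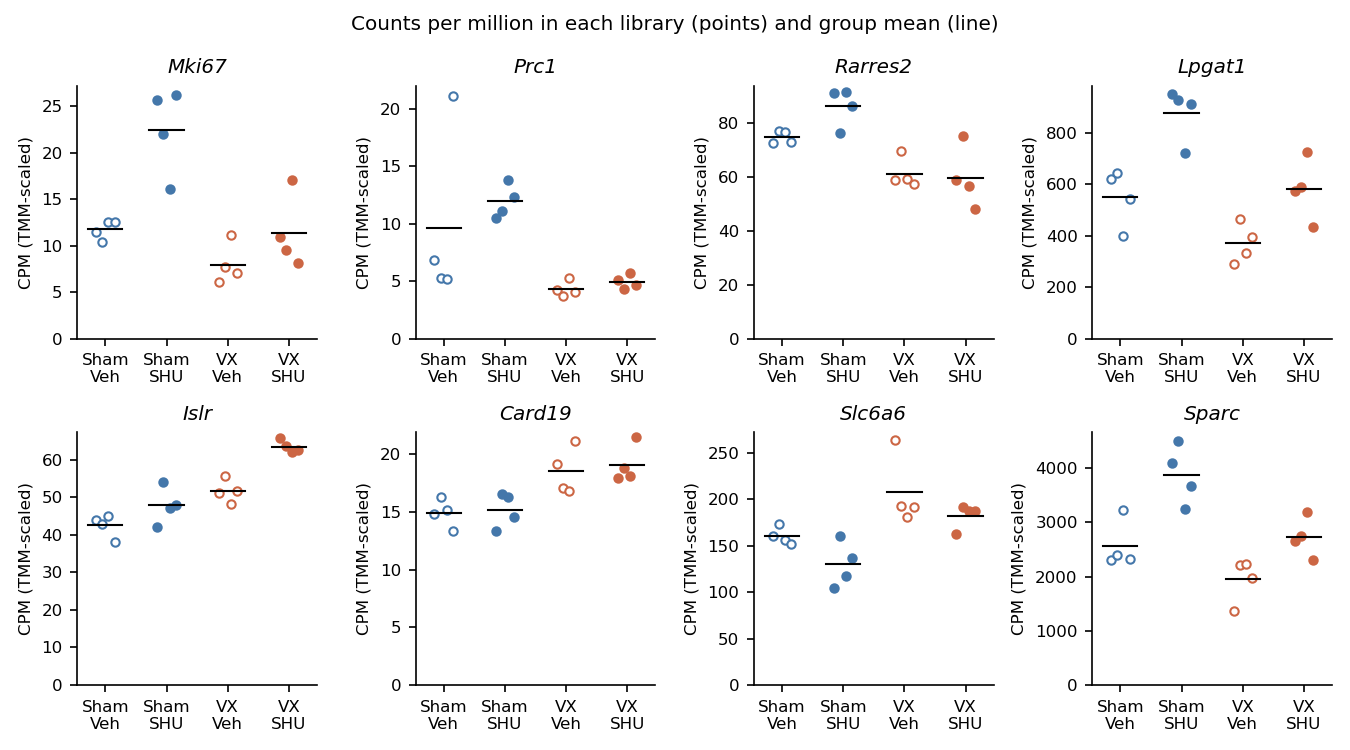
Level of 8 genes in each library (CPM after TMM scaling, linear axes from 0), with blue for sham, orange for sDVX, open points for vehicle, filled points for SHU9119 and lines for the mean of each group of 4. Mki67 reaches 26.2 CPM in a Sham_SHU library and 17.1 in the highest sDVX library, and the Card19 levels of the 8 sDVX libraries, 16.8 to 21.5 CPM, all lie above those of the 8 sham libraries.

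Genes of the extracellular matrix and a list of genes linked to fat mass also had mostly lower estimates after sDVX. Of 29 matrix genes, 21 were below 0, and 9 (31%, against 10.8% of all genes) had an unadjusted p under 0.05 on the lower side, with a median log2 fold change of -0.21 for the extracellular matrix list. Sparc, a secreted protein that binds collagen (chromosome 11, 55394159 to 55420080), ran from 2310 to 4500 CPM with a median of 3230 after sham surgery and from 1360 to 3190 with a median of 2270 after sDVX. All 8 sDVX libraries were under the sham median, and 5 of 8 sham libraries were above the highest sDVX library. Its log2 fold change was -0.45 (SE 0.119, edgeR unadjusted p = 0.00179, adjusted p = 0.196), -0.40 under vehicle and -0.51 under SHU9119. The fibrillar collagens Col5a2 and Col3a1 had estimates of -0.45 (SE 0.124) and -0.33 (SE 0.136), and Col4a1, a basement membrane collagen, had -0.53 (SE 0.199). Fbn1, fibrillin of elastic microfibrils, had -0.59 (SE 0.165), fibronectin, Fn1, -0.55 (SE 0.201), and the collagen crosslinking enzyme Lox -0.21 (SE 0.0944). The matrix protease Mmp2 was among the 8 members above 0, at 0.28 (SE 0.153). VX_Veh1 was the lowest sDVX library for 16 of the 29 genes, and without it the list had 6 lower members and a median of -0.15. Without the 7 libraries with epididymis or testis genes the list had 4 lower members and a median of -0.16. Over all genes tested, the lower counts at an unadjusted p under 0.05 were 1544 of 16929 without VX_Veh1 and 644 of 16509 without the 7.

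The list of genes linked to fat mass was also chosen with earlier results of these data known. No direction of change with depot size was set for its members, so its median is not a measure of depot size. Of its 14 members 10 were below 0, 6 (42.9%, against 10.8% of all genes) had an unadjusted p under 0.05 on the lower side and 1, the acetyltransferase subunit Naa10, on the higher side, and the median was -0.39. Lpgat1, an acyltransferase of phospholipids (chromosome 1, 191717554 to 191784255), ran from 397 to 948 CPM with a median of 682 after sham surgery and from 288 to 723 with a median of 450 after sDVX. The groups overlapped, with 3 sham libraries above every sDVX library. Its log2 fold change of -0.58 (SE 0.129, edgeR unadjusted p = 0.000419, adjusted p = 0.196) was similar in size under vehicle, -0.57 (SE 0.190), and under SHU9119, -0.60 (SE 0.190). Mest, an imprinted gene known to be high in expanding fat, had medians of 89.7 and 39.7 CPM and a log2 fold change of -0.91 (SE 0.265). Slc7a10, an amino acid transporter of the adipocyte surface, had -0.45 (SE 0.142), the caveolae protein Cav1 -0.32 (SE 0.106) and the natriuretic peptide clearance receptor Npr3 -0.51 (SE 0.200). Naa10 had medians of 27.7 and 31.9 CPM and an estimate of 0.17 (SE 0.0710). VX_Veh1 was the lowest sDVX library for 10 of the 14 genes linked to fat mass, and without it 5 were lower and the median was -0.31. Over all genes tested, 1544 of 16929 were lower at an unadjusted p under 0.05 without that library.

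The 10 genes of smallest p on the lower side, among named genes that averaged 5 CPM or more, were Rad50, Rarres2, Sufu, Bod1l, Tpr, Wfdc21, Prc1, Ccdc186, Lhfpl2 and Plagl1. Each had the adjusted p of 0.196 in edgeR. Rad50, a subunit of the complex that repairs broken DNA (chromosome 11, 53649519 to 53707319), ran from 54.1 to 78.8 CPM with a median of 58.9 after sham surgery and from 43.5 to 58.6 with a median of 47.4 after sDVX. All 8 sDVX libraries lay below the sham median, and the log2 fold change was -0.34 (SE 0.0666, edgeR unadjusted p = 0.000117). Bod1l, which protects replication forks, was similar in direction, with a median of 130.0 CPM after sham surgery and 111 after sDVX and an estimate of -0.24 (SE 0.0484). Tpr, which forms the basket of the nuclear pore, ran from 165 to 199 CPM and from 146 to 173, with -0.21 (SE 0.0430). DESeq2 put Tpr under an adjusted p of 0.05 with all libraries, without those with liver genes, without those with epididymis or testis genes, and with marker sums as covariates. Sufu, an inhibitor of Hedgehog signalling, had medians of 59.3 and 47.0 CPM and an estimate of -0.35 (SE 0.0708).

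Rarres2 encodes chemerin, a chemoattractant that fat secretes (chromosome 6, 48569696 to 48572845). Its level ran from 72.5 to 91.4 CPM with a median of 76.8 after sham surgery and from 48.1 to 74.9 with a median of 58.8 after sDVX. All 8 sDVX libraries were under the sham median, and 6 of 8 sham libraries were above the highest sDVX library. Its log2 fold change was -0.41 (SE 0.0822, edgeR unadjusted p = 0.000164), with -0.29 (SE 0.111) under vehicle and -0.53 (SE 0.111) under SHU9119. Without the 4 libraries with liver genes, 3 of them Sham_SHU, the Rarres2 estimate was -0.28 and its DESeq2 adjusted p 0.177. The part of liver RNA in the difference was not tested. Wfdc21, a small secreted protein of the whey acidic protein family, had the largest fold of the 10 after Prc1, with medians of 29.6 and 18.3 CPM and an estimate of -1.04 (SE 0.216). Plagl1, an imprinted zinc finger factor that restrains growth, had medians of 118 and 84.7 CPM and -0.51 (SE 0.112). Lhfpl2, a tetraspan membrane protein, had -0.57 (SE 0.122), and Ccdc186, a protein of dense core vesicle maturation, -0.48 (SE 0.103).

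On the higher side the 10 genes were Islr, Zfp777, Mllt6, Card19, Slc6a6, Mbd6, Cic, Rnaseh2c, Bri3 and Rassf6. Islr, the stromal cell protein meflin (chromosome 9, 58156246 to 58159236), had the smallest p of all genes. It ran from 38.1 to 54.1 CPM with a median of 44.6 after sham surgery and from 48.2 to 65.9 with a median of 58.9 after sDVX. Only 1 sham library was above the lowest sDVX library, and the log2 fold change was 0.34 (SE 0.0541, unadjusted p = 1.33e-05, adjusted p = 0.196 in edgeR, adjusted p = 1.79e-06 in DESeq2). Under vehicle the estimate was 0.28 (SE 0.0751) and under SHU9119 0.41 (SE 0.0751). Slc6a6, the taurine transporter (chromosome 6, 91684048 to 91759063), ran from 105 to 173 CPM with a median of 154 and from 163 to 264 with a median of 189. Its highest level was in VX_Veh1, and its estimate was 0.43 (SE 0.0932).

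Mllt6, a PHD finger protein, had medians of 90.1 CPM after sham surgery and 107 after sDVX and a log2 fold change of 0.24 (SE 0.0525). Cic, the repressor capicua, ran from 86.8 to 98.2 and from 96.4 to 113 CPM, with 0.18 (SE 0.0419). Zfp777, a zinc finger protein, ran from 19.5 to 25.5 and from 23.8 to 30.2 CPM, with 0.27 (SE 0.0555). Mbd6, with a methyl-CpG-binding domain, had 0.26 (SE 0.0588), from 0.14 (SE 0.0741) under vehicle and 0.37 (SE 0.0742) under SHU9119, and it was the only one of these 20 genes with an unadjusted interaction p under 0.05 (0.0477 in edgeR, adjusted p = 0.999). Rnaseh2c, a subunit of the enzyme that removes ribonucleotides from DNA, had 0.38 (SE 0.0889). Card19 had 0.32 (SE 0.0695), the lysosomal membrane protein Bri3 0.21 (SE 0.0489) and Rassf6, a Ras association domain protein, 0.66 (SE 0.156). The sign of the estimate was kept in each of 34 alternatives for the 20 genes of both sides. The genes were chosen by their p in the same libraries, so the kept signs, and the DESeq2 calls that follow, are not independent support. With all libraries DESeq2 gave all 20 an adjusted p under 0.05, against 9 without the libraries with liver genes, 3 without those with epididymis or testis genes (Lhfpl2, Rassf6 and Tpr) and 1 (Tpr) with the 4 marker sums as covariates.

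**Figure D3:**
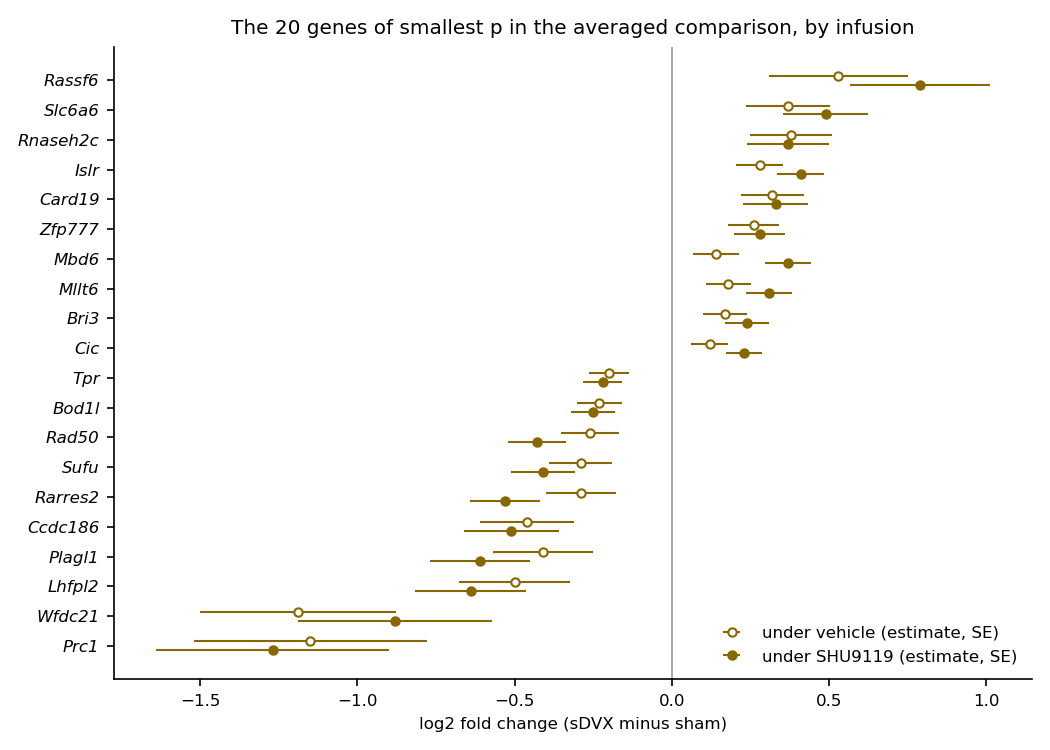
Log2 fold change, sDVX minus sham, of the 20 genes with the smallest p in each direction (10 higher and 10 lower), with open circles for the estimate under vehicle, filled circles for that under SHU9119, and bars for 1 standard error. Each gene has both estimates on the same side of 0, from -1.15 and -1.27 for Prc1 to 0.53 and 0.79 for Rassf6. The vehicle estimate of Prc1 rests largely on Sham_Veh4, at 21.1 CPM. The genes were chosen by the averaged p of the same libraries, so the shared side is a description only.

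Contractile genes and immediate early genes had higher estimates after sDVX. Of 12 markers of smooth muscle and pericytes, the contractile and wall cells of vessels, 10 were above 0 and 5 (41.7% against 5.28% of all genes) had an unadjusted p under 0.05 on the higher side, with a median of 0.18. The 5 were genes of the contractile apparatus. Acta2, smooth muscle actin, ran from 90.3 to 172 CPM with a median of 147 after sham surgery and from 76.0 to 302 with a median of 238 after sDVX. The groups overlapped across the whole sham range, and the log2 fold change was 0.67 (SE 0.216, edgeR unadjusted p = 0.00733). Tagln, an actin-binding protein, had 0.69 (SE 0.192), the smooth muscle myosin Myh11 0.60 (SE 0.189), calponin, Cnn1, 1.14 (SE 0.431), and desmin, Des, 0.31 (SE 0.117). The pericyte genes of the list were near 0, with -0.10 (SE 0.115) for Rgs5, 0.01 (SE 0.0997) for Pdgfrb and 0.07 (SE 0.119) for Kcnj8. Without the 4 libraries with liver genes the median of the smooth muscle and pericyte markers was 0.13. Without the 7 with epididymis or testis genes 3 of 12 were higher, against 575 of all 16509 genes tested, and the median was 0.29.

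Of 21 immediate early genes, which respond within minutes to stimuli and also to handling of tissue, 16 were above 0 and 5 (23.8%, against 5.28% of all genes) had an unadjusted p under 0.05 on the higher side: Jund, Ier2, Egr1, Junb and Myc. The median was 0.27. Jund, a subunit of the factor AP-1 (chromosome 8, 70697739 to 70700616), ran from 61.6 to 83.8 CPM with a median of 70.7 after sham surgery and from 73.5 to 98.8 with a median of 86.8 after sDVX. All 8 sDVX libraries were above the sham median, and the log2 fold change was 0.28 (SE 0.0726, edgeR unadjusted p = 0.00157, adjusted p = 0.196). Egr1, a growth response factor, had medians of 51.4 and 72.4 CPM and 0.44 (SE 0.149). Sham_SHU2, the only Sham_SHU library that stays when the 4 libraries with liver genes are left out, was the highest sham library for 16 of the 21 genes. Without those 4 the median of the list of immediate early genes was 0.06. Without the 7 with epididymis or testis genes 3 members were higher, against 575 of all 16509 genes tested, and the median was 0.14.

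Of 19 circadian clock genes, 14 were above 0 and 2 (10.5%, against 5.28% of all genes) had an unadjusted p under 0.05, both higher. Among these, Hlf, an output factor of the clock, had medians of 29.2 CPM after sham surgery and 39.3 after sDVX and an estimate of 0.60 (SE 0.176). The core repressors Per1 and Per2 had 0.30 (SE 0.228) and 0.26 (SE 0.232), which did not exceed the spread between libraries. Without the 4 libraries with liver genes the median of the circadian clock list was -0.02. The hour of tissue collection is not stated in the labels.

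Lists of lipid metabolism were close to 0 on average, and those of fatty acid synthesis and cholesterol synthesis had medians of opposite sign under vehicle and under SHU9119. For fatty acid synthesis, with 22 genes, the median was 0.14 averaged over infusions, 0.46 under vehicle and -0.34 under SHU9119. Of the 22, 2 (9.09%, against 5.28% of all genes) had an unadjusted p under 0.05, both higher. Without Sham_Veh2 the averaged median of fatty acid synthesis was 0.01. Fasn, fatty acid synthase, ran from 3020 to 24400 CPM with a median of 9060 after sham surgery and from 3940 to 23900 with a median of 10100 after sDVX, and the groups overlapped over nearly their whole range. Its estimate was 0.30 (SE 0.396) averaged, 1.04 (SE 0.490) under vehicle and -0.44 (SE 0.486) under SHU9119, with an interaction p of 0.0502 in edgeR (adjusted p = 0.999). Scd2, a stearoyl-CoA desaturase, had 0.16 (SE 0.290) averaged over infusions. The 4 Sham_Veh libraries were at 339, 293, 242 and 215 CPM and the 4 VX_Veh libraries at 540, 487, 377 and 762. Under SHU9119 the sham libraries were at 1270, 1260, 622 and 1170 CPM and the sDVX libraries at 542, 559, 775 and 827. The estimates for Scd2 were 0.99 (SE 0.259) and -0.68 (SE 0.257), so an average over infusions does not describe it. Its interaction had an unadjusted p of 0.000452 in edgeR and an adjusted p of 0.957.

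Scd1, the main desaturase of fat, had an averaged estimate of -0.30 (SE 0.295), with 0.19 (SE 0.382) under vehicle and -0.79 (SE 0.384) under SHU9119. The members of the list with the same sign under both infusions included Fads1, the delta-5 fatty acid desaturase, with 0.23 (SE 0.0926), 0.26 and 0.20, and Mlxipl, the carbohydrate response factor ChREBP, with 0.31 (SE 0.139), 0.31 and 0.31. For cholesterol synthesis and uptake, with 25 genes, the median was -0.05 averaged, 0.30 under vehicle and -0.34 under SHU9119. Hmgcs1, an early enzyme of that pathway, had medians of 327 and 222 CPM and -0.39 (SE 0.122), and Srebf2, its master transcription factor, had 57.0 and 69.9 CPM and 0.31 (SE 0.125). For glucose uptake and glycolysis the median was -0.05 averaged, 0.20 under vehicle and -0.29 under SHU9119, and Slc2a1, the basal glucose transporter, had 0.40 (SE 0.169). The infusion comparisons share no libraries with each other, and none of the list differences between them was tested.

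**Figure D4:**
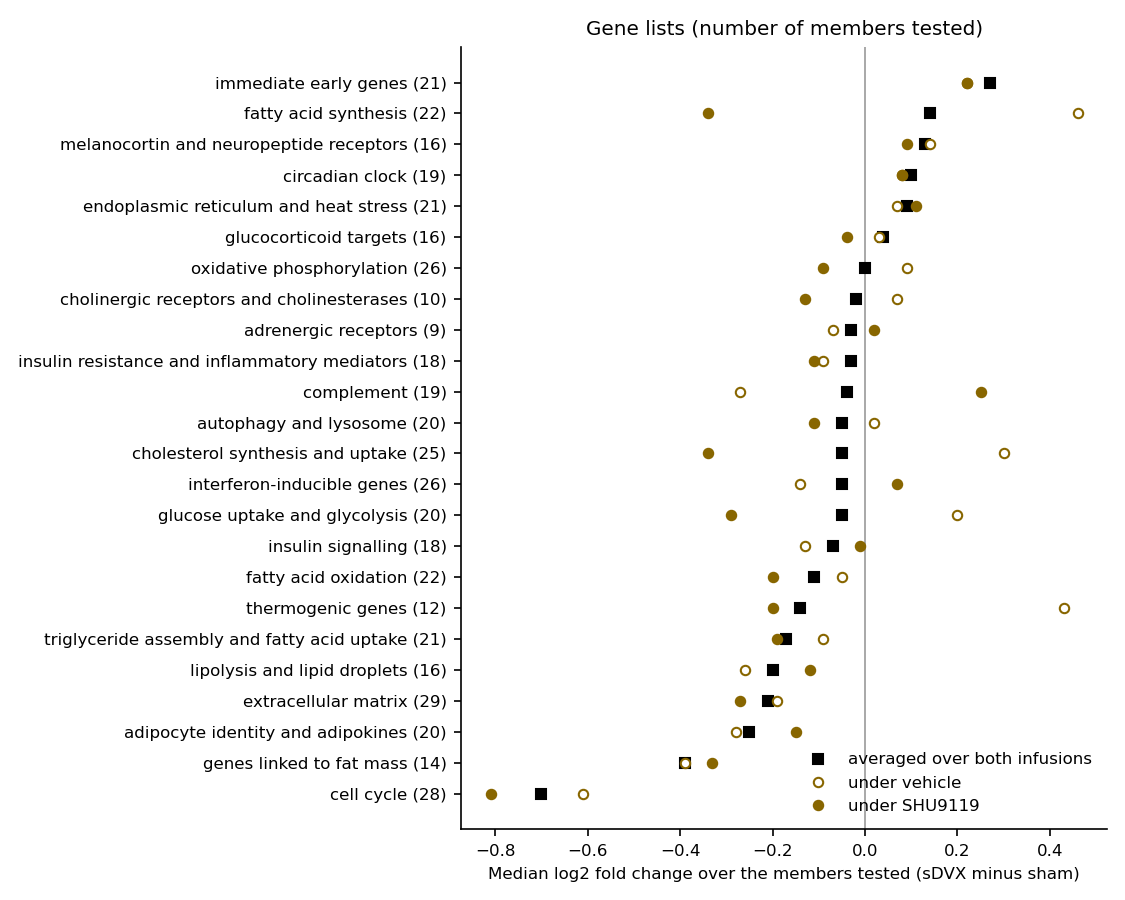
Median log2 fold change, sDVX minus sham, over the tested members of each of 24 gene lists, with squares for the averaged comparison and open and filled circles for the estimates under vehicle and under SHU9119. The cell cycle list has the lowest median, -0.70, with -0.61 and -0.81 under the infusions, and fatty acid synthesis lies at 0.46 under vehicle and -0.34 under SHU9119. Where the circles coincide, as for immediate early genes at 0.22, only the filled one is visible.

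Genes of fat storage and release had small estimates that were mostly below 0. Of 16 genes of lipolysis and lipid droplets, 15 were below 0, with a median of -0.20. Prkar2b, the regulatory subunit of protein kinase A in adipocytes, had medians of 623 and 509 CPM and -0.35 (SE 0.121), and the lipid droplet protein Cidec had 2490 and 2210 CPM and -0.36 (SE 0.174). Cidea, a droplet protein of brown and beige fat, was the member above 0, at 0.62 (SE 0.273), with 19.6 CPM in VX_Veh3 and 5 to 8.67 in the other sDVX libraries. Of 21 genes of triglyceride assembly and fatty acid uptake, 17 were below 0 with a median of -0.17, and of 22 genes of fatty acid oxidation, 20 were below 0 with a median of -0.11. Vldlr, a lipoprotein receptor, had -0.26 (SE 0.0949), and Cd36, a fatty acid transporter, -0.27 (SE 0.127). For oxidative phosphorylation, with 26 genes, 0 had an unadjusted p under 0.05 and the median was 0.00.

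VX_Veh1 was the lowest sDVX library for 15 of the 16 genes of lipolysis and lipid droplets. Without it the median of that list was -0.09, and without the 7 libraries with epididymis or testis genes it was -0.04. For triglyceride assembly and fatty acid uptake the medians under the same omissions were -0.13 and -0.01, and for fatty acid oxidation -0.07 and 0.01.

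Of 20 genes of adipocyte identity and secreted adipokines, 16 were below 0 and 3 (15%, near the 10.8% of all genes) had an unadjusted p under 0.05, all lower, with a median of -0.25. Apln, the hormone apelin, had medians of 25.2 and 16.3 CPM and -0.66 (SE 0.235). Lep, leptin, ran from 225 to 1340 CPM with a median of 696 after sham surgery and from 227 to 870 with a median of 556 after sDVX. The groups overlapped widely, and the log2 fold change was -0.41 (SE 0.254, edgeR unadjusted p = 0.128, adjusted p = 0.425). Adipoq had medians of 2710 and 2600 CPM and -0.19 (SE 0.172), and Pparg, the master regulator of adipocytes, 297 and 266 CPM and -0.21 (SE 0.161). Without VX_Veh1 the median of the adipocyte identity and adipokines list was -0.14, and without the 7 libraries with epididymis or testis genes it was 0.00, with Adipoq at 0.10.

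The receptors through which nerves act on fat had few differences. Of 9 adrenergic receptors, 0 had an unadjusted p under 0.05 and the median was -0.03. Adrb3, the receptor that starts lipolysis in mouse adipocytes, had medians of 954 CPM after sham surgery and 979 after sDVX and an estimate of -0.13 (SE 0.180). Adra2c, an inhibitory receptor, had medians of 1.16 and 2.59 CPM and 0.93 (SE 0.440, edgeR unadjusted p = 0.0530). Of the 19 genes of acetylcholine signalling, the transmitter of the vagus, 10 were tested and the other 9 were too low, among them the enzyme of acetylcholine synthesis, Chat, at 0 to 0.0718 CPM. Of these 10, 0 were higher and 1 was lower (10%, near the 10.8% of all genes) at an unadjusted p under 0.05. The lower one was Chrna4, a nicotinic receptor subunit, with medians of 1.10 and 0.632 CPM and -0.65 (SE 0.232). The muscarinic receptor Chrm3 had nearly equal medians, 1.64 and 1.68 CPM, beside an estimate of 0.95 (SE 0.445). Bche, butyrylcholinesterase, had 233 and 212 CPM and -0.27 (SE 0.130).

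Of the melanocortin and neuropeptide receptors, Mc3r had 0 CPM in all 16 libraries and Mc4r 0 to 0.615, both too low to test. Mc1r, the melanocortin receptor of pigment cells and macrophages (chromosome 8, 123407082 to 123410744), had an averaged log2 fold change of 0.88 (SE 0.264, edgeR unadjusted p = 0.00466, adjusted p = 0.196). Its levels were 1.11, 0.801, 1.45 and 1.76 CPM in Sham_Veh and 1.09, 1.36, 1.66 and 1.69 in VX_Veh, which overlapped. They were 1.19, 1.03, 0.883 and 1.31 CPM in Sham_SHU and 2.97, 3.45, 4.06 and 2.67 in VX_SHU, which did not. How many of all genes do not overlap in 4 against 4 libraries was not counted. The averaged estimate of Mc1r thus rests on the libraries under SHU9119, where it was 1.57 (SE 0.271), against 0.18 (SE 0.266) under vehicle, with an interaction p of 0.00248 in edgeR (adjusted p = 0.957). Mc2r, the receptor of adrenocorticotropic hormone, had medians of 23.7 and 20.4 CPM and -0.29 (SE 0.159).

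Thermogenic genes were low. Ucp1, which uncouples respiration in brown and beige adipocytes, was at 17.8 CPM in VX_Veh3 and at 0 to 0.174 in the other 15 libraries, so it was not tested. Of 12 thermogenic genes tested, 5 were above 0, with a median of -0.14 averaged, 0.43 under vehicle and -0.20 under SHU9119. Without the 4 libraries with liver genes the averaged median of the thermogenic genes was 0.11. The coactivator Ppargc1a had medians of 11.2 and 13.8 CPM and 0.44 (SE 0.237).

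Inflammatory and immune genes were mixed. Of 18 genes of insulin resistance and inflammation tested, 9 were below 0 and 4 (22.2%, against 10.8% of all genes) had an unadjusted p under 0.05, all lower. The median of insulin resistance and inflammatory mediators was -0.03, and -0.19 without the 4 libraries with liver genes. Hp, haptoglobin, had medians of 2140 and 1530 CPM and -0.54 (SE 0.205), with -0.96 (SE 0.251) under vehicle and -0.12 (SE 0.249) under SHU9119. Ccl2, the chemokine that recruits monocytes, had medians of 10.5 and 4.09 CPM and -0.87 (SE 0.339), and Saa3, an acute phase protein of fat, 4.28 and 3 CPM and -1.13 (SE 0.458). Of 26 interferon-inducible genes, 3 were lower (11.5%) and 1 higher (3.85%) at an unadjusted p under 0.05, shares near those of all genes. Among them Gbp7, a guanylate-binding protein, had 63.4 and 52.5 CPM and -0.35 (SE 0.119), and the interferon factor Irf7 25.8 and 30.5 CPM and 0.21 (SE 0.0732). Of 19 complement genes, 2 were lower (10.5%, near the 10.8% of all genes), the regulator Cd55 with -0.27 (SE 0.0774) and C6 with -0.65 (SE 0.205), and the median of complement was -0.27 under vehicle and 0.25 under SHU9119. Of 20 macrophage markers, 13 were above 0, and 1 (5%, near the 5.28% of all genes) was higher at an unadjusted p under 0.05. This was Gpnmb, a membrane glycoprotein of lipid-laden macrophages, with medians of 27.2 and 63.1 CPM and 1.38 (SE 0.393). The median of the macrophages list was 0.04, -0.25 under vehicle and 0.30 under SHU9119, and -0.18 in DESeq2 without the libraries with liver genes.

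Of 14 markers of fat progenitors and stroma, 4 were lower (28.6%, against 10.8% of all genes) and 2 higher (14.3%, against 5.28%) at an unadjusted p under 0.05. Among them were the matrix protein Dpt at -0.39 (SE 0.121) and the adhesion molecule Icam1 at 0.27 (SE 0.0823). The median of fat progenitors and stroma was 0.09, -0.05 under vehicle and 0.29 under SHU9119, and -0.02 without the 4 libraries with liver genes. Of 14 endothelial markers, 1 (7.14%, near the 5.28% of all genes) was higher, Vwf, the clotting factor carrier of endothelium, with 0.50 (SE 0.210). Of 16 markers of T, B and NK cells tested, 0 passed an unadjusted p of 0.05 on either side. All 16 liver genes were below 0, 14 of them at an unadjusted p under 0.05, with a median of -2.99, and all 16 testis and sperm genes were below 0, 9 at that level, with a median of -2.38. Alb, serum albumin, was at 15.7 to 2350 CPM after sham surgery and at 19.5 to 172 after sDVX, so the groups overlapped and the estimate of -3.16 rests on the few sham libraries with high sums. Without those 4 libraries the median of the liver list was 0.45.

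The interaction, the difference between the sDVX effects under SHU9119 and under vehicle, was tested to see how far an average describes both. Of 16682 genes, 0 (0%) passed an adjusted p of 0.05 in edgeR, with 794 (4.76%) at an unadjusted p under 0.05, 555 (3.33%) with the larger estimate under SHU9119 and 239 (1.43%) with the smaller, and DESeq2 called 8 and limma-voom 13. The smallest p-values were those of Srpx, Ifi204 and Arhgap15. Srpx, a sushi domain protein of the matrix (chromosome X, 10037977 to 10117640), was at 33.6, 30.8, 35.7 and 24.6 CPM in Sham_Veh and 27.3, 24.9, 25.7 and 22.5 in VX_Veh. Under SHU9119 it was at 18.1, 19.2, 20.6 and 18.5 CPM in Sham_SHU and 33.9, 28.3, 26.0 and 34.1 in VX_SHU, with no overlap. Its estimates were -0.31 (SE 0.117) and 0.68 (SE 0.118), the interaction 0.99 (SE 0.166, edgeR unadjusted p = 3.67e-05, adjusted p = 0.612), and the average 0.18 (SE 0.154). Ifi204, an interferon-inducible DNA sensor, had -0.58 (SE 0.103) under vehicle and 0.21 (SE 0.103) under SHU9119, and Arhgap15, a Rac regulator of blood cells, -0.33 (SE 0.142) and 0.70 (SE 0.143). Emp1, an epithelial membrane protein of the peripheral myelin protein family, differed in the same way: the VX_Veh libraries were at 203, 352, 236 and 252 CPM against 528, 612, 421 and 566 in Sham_Veh, while VX_SHU and Sham_SHU overlapped at 539 to 627 and 545 to 666. For Emp1 the average of -0.55 (SE 0.166) therefore combined -1.03 (SE 0.155) and -0.06 (SE 0.154), with an unadjusted interaction p of 0.000602 in edgeR (adjusted p = 0.957). Without Sham_Veh4, Srpx alone passed the interaction test of edgeR (adjusted p = 0.0350).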

How the data were processed

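Poly(A) RNA of frozen gonadal fat from 16 libraries was sequenced. The authors deposited a table of read counts per gene, and bcl2fastq, TopHat, edgeR and the build mm10 are named in the submitters' processing notes. For the counting program, gene annotation and strand, nothing is given in the sources used here, so reads of overlapping or antisense genes may not be told apart. The table lists 24454 genes by NCBI gene number, of which 24374 were matched to a symbol, and the 80 others held 0.557% to 1.244% of the counts.

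Counts were normalized by TMM and tested with edgeR 4.0.16 in R 4.3.3 (quasi-likelihood, robust, additive model of infusion and surgery) over the 16682 genes kept by edgeR's expression filter, with Benjamini-Hochberg adjustment and a threshold of 0.05. The interaction came from a fit with 1 mean per group. An SE beside an edgeR estimate is the absolute log2 fold change divided by the square root of its F statistic. An SE beside a DESeq2 estimate is the one that DESeq2 reports. Levels (CPM) are counts scaled by TMM library size, and edgeR fold changes are those of the fit at its default prior count. A prior count of 2 was used for log CPM values and not for these fold changes. The biological coefficient of variation was 48.7% in common and 22.4% in the median gene. Alternatives used DESeq2 1.42.0, limma 3.58.1 and sva 3.50.0, other filters and scalings, a replicate block, single libraries left out, and libraries left out or adjusted for by marker sums. Gene lists, members and the rule for named genes were chosen with earlier results of these data known. That rule takes the 10 genes of smallest p in each direction among genes that average 5 CPM or more, leaving out unnamed gene models, antigen receptor segments and mitochondrial genes, the gene of smallest p of each function list, the genes of smallest interaction p, and a few genes always named. A result under this rule is not reported here. Other list members are given as examples chosen after their values were seen. On simulated counts with 50 changed genes at each size, the edgeR test recovered 34% at 1.5-fold, 76% at 2-fold, 86% at 3-fold and 84% at 4-fold. Genes were simulated independently, with no infusion effect and no swings in RNA of other organs shared between genes. The recovery in these data may therefore differ. Replicates of a group differed by 12.4 to 217.9 times the sampling noise over 24 pairs (chi-square per degree of freedom), so none was counted as a duplicate.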

Additional observations from a re-analysis of the deposited data

Results flagged for a closer look

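Within the 8 libraries of a surgery, a level was singled out where its gap to the nearest other library exceeded 0.526 of the whole range. Of 144 groups examined 17 did so, and chance gives about 5%. For 3 named genes the extreme library was VX_Veh1: Mllt6 at 122 CPM against 109 in the next library, Slc2a1 at 43.0 against 26.4 and Slc6a6 at 264 against 193 (gaps of 0.561, 0.608 and 0.698 of the range). In VX_Veh3, Ucp1 was at 17.8 CPM against 0.174 (0.990) and Cidea at 19.6 against 8.67 (0.749). In VX_SHU3, Fasn was at 23900 CPM against 13300 (0.531), Mki67 at 17.1 against 11.1 (0.546) and Rad50 at 58.6 against 49.3 (0.620).

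In sham libraries, Adipoq was at 3960 CPM in Sham_Veh3 against 3100 (0.535), Bod1l at 152 in Sham_SHU1 against 133 (0.603) and Ccdc186 at 22.6 in Sham_Veh4 against 16.4 (0.648).

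Among marker sums, VX_Veh1 held 195 CPM of mast cell and granulocyte genes against 111 (0.710) and 1200 of ciliated epithelium genes against 313 (0.744). Sham_Veh3 held 41.1 CPM of T, B and NK cell genes against 30.0 (0.539). Sham_SHU2 held 140 CPM of skeletal muscle genes against 85.5 (0.602) and 25.7 of pancreas genes against 15.7 (0.540), and VX_SHU3 held 16.9 of pancreas genes against 10.8 (0.626). Their part in the results was not tested.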

How the results depend on the processing

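The averaged count of 0 called genes was also 0 in 29 of 34 alternatives. The others were DESeq2 with 446, DESeq2 without the libraries with liver genes with 164, DESeq2 without those with epididymis or testis genes with 35, DESeq2 with 4 marker sums as covariates with 12, and edgeR with epididymis, testis and ciliated sums as covariates with 1 (Gm10823). The liver settings and the DESeq2 settings that leave out or adjust for libraries were chosen after seeing the data. At an unadjusted p under 0.05, 880 genes were higher, against 274 under vehicle, 575 without the libraries with epididymis or testis genes and 478 with the liver sum as a covariate. The 1800 lower genes became 1005 with limma-voom, 1061 under vehicle, 925 under SHU9119, 644 without the libraries with epididymis or testis genes (841 in DESeq2) and 493 in DESeq2 with 4 covariates. Leaving out 1 library at a time gave 590 to 1200 higher and 813 to 2046 lower genes, the lowest lower count without Sham_Veh4. Fewer libraries, and so fewer degrees of freedom, are part of some of these settings; beyond that the cause was not tested. Interaction calls were 0 in edgeR, 8 in DESeq2, 13 in limma-voom and 0 to 1 with 1 library left out (Srpx, without Sham_Veh4).

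Of 54 named genes tested, 46 kept their sign in every alternative and 8 did not. Adipoq was at 0.04 with limma-voom and 0.10 without the libraries with epididymis or testis genes, in edgeR and DESeq2, and Pparg at 0.00 there in both. Scd2 was at -0.15 without the infusion term, -0.68 under SHU9119 and -0.35 without the libraries with epididymis or testis genes in both tools. Under vehicle Arhgap15 was at -0.33, Scd1 at 0.19 and Srpx at -0.31, and under SHU9119 Fasn was at -0.44 and Ifi204 at 0.21. Srpx was at -0.03 without the libraries with liver genes (-0.04 in DESeq2) and -0.05 in DESeq2 with 4 covariates. The cause was not tested.

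With the replicate number as a block, edgeR called 0 genes, with 779 higher and 1517 lower at an unadjusted p under 0.05, and 0 interactions. Deviations of 24 same-numbered pairs correlated from -0.69 to 0.68 (median 0.18), with 13 over 0.1, against a median of -0.03 over 72 other pairs, and 5 of 16 libraries correlated best with their own number. Since not every pair was over 0.1 and the labels state no shared litter or day, the numbers were not taken as pairing.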

Other observations

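Among genes outside the lists, those that follow passed DESeq2 (adjusted p under 0.05), though not edgeR, and were chosen after their values were seen. Ccn2, a secreted growth factor of connective tissue, had mean levels of 29.0 CPM after sham surgery and 51.7 after sDVX, and a DESeq2 log2 fold change of 0.83 (SE 0.254, adjusted p = 0.0448). Mgp, matrix Gla protein of vessel walls, had 72.1 and 122 CPM and 0.75 (SE 0.234). Ntrk3, a neurotrophin receptor, had 6.33 and 10.4 CPM and 0.75 (SE 0.228), and the mitochondrial protein Chchd10 48.9 and 78.7 CPM and 0.67 (SE 0.176). The ribosomal protein genes Rps28 and Rpl28 had 0.43 (SE 0.110) and 0.41 (SE 0.112).

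On the lower side, Igfbp5, a binding protein of insulin-like growth factors, had 339 and 258 CPM and -0.40 (SE 0.0955, DESeq2 adjusted p = 0.0102). Ffar2, the adipocyte receptor of short-chain fatty acids, had 66.3 and 43.3 CPM and -0.62 (SE 0.149). Igfbp5 and Ffar2 also passed DESeq2 with the 4 marker sums as covariates, at -0.45 and -0.67. Of all DESeq2 calls, 0 of the 96 higher and 5 of the 350 lower genes passed again on the same side in that setting. The matrix genes Vcan, Prelp and Nid1, had -0.54 (SE 0.136), -0.51 (SE 0.142) and -0.42 (SE 0.119). Oxct1, the enzyme of ketone use, had 365 and 279 CPM and -0.39 (SE 0.1). The same DESeq2 list held many genes of neighbouring organs on the lower side, among them 14 of the 16 listed liver genes. Examples are the sperm gene Adam3 at 28.7 and 1.63 CPM and the liver apolipoprotein gene Apob at 34.0 and 2.72 CPM.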
